A study of Homo sapiens with 6 samples.

Results

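MYLK-AS1, MYLK and 7 of their neighbours on chromosome 3 were described together: CCDC14, ADCY5, SEC22A, PDIA5, SEMA5B, KALRN and DTX3L. The 9 genes were taken from the table by symbol, and all 9 were found among its 54261 symbols. The study asked, by its title, about a role of MYLK-AS1 in glutamine metabolism and in resistance of lung cancer to EGFR inhibitors, drugs against a growth factor receptor. RNA was sequenced from 6 samples of the human lung cancer line PC9/GR. The control group was 3 samples with si-NC, a small interfering RNA (siRNA) labelled as the control, and the knockdown group was 3 samples with si-MYLK-AS1. Both groups came from that 1 cell line, and the sources used here do not give the siRNA sequence, dose or time of harvest.

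MYLK encodes myosin light chain kinase, which is activated through calcium and phosphorylates the regulatory light chain of myosin II, so that the motor pulls on actin filaments. MYLK-AS1 is a long non-coding RNA made from the opposite DNA strand, and such antisense RNAs are known in some cases to raise or lower the gene across from them and in others to leave it alone. The neighbours have unrelated roles: CCDC14 is a protein of the centrosome, ADCY5 makes cyclic AMP, SEC22A acts in transport between the endoplasmic reticulum and the Golgi, PDIA5 is a disulfide isomerase of the endoplasmic reticulum, SEMA5B is a guidance cue, KALRN is an exchange factor for small GTPases, and DTX3L is a ubiquitin ligase.

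Of the 9 genes, 7 had enough reads to be tested, and 3 of these fell (MYLK-AS1, MYLK and CCDC14), 2 rose (DTX3L and PDIA5) and 2 did not pass (ADCY5 and SEC22A). A gene was said to rise or fall where edgeR's quasi-likelihood test gave an adjusted p under 0.05 (Benjamini-Hochberg over 15391 tested genes). Much of the transcriptome differed between the groups: 42.0% of the tested genes passed, 21.3% upward and 20.7% downward. The 5 of 7 genes that passed have to be read against that share. The CPM ranges of the groups were apart for 5 of the 7, against 52.2% of all tested genes. CPM is a gene's count scaled to a fixed library size after TMM correction. With 3 against 3 samples, an exact permutation test of a single gene cannot go below p = 0.1, which is the value all 5 of those genes reached. Nothing in the labels says that repeats were separate cultures, so a p-value here reflects the spread of these 6 samples alone, which may be technical.

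Library totals ran from 7551303 to 11055408 reads. A count of 3 was worth 0.274 to 0.410 CPM, depending on the library. No floor was applied to CPM, so a gene with no reads in a library entered the mean as 0. Markers of lung epithelium were present in part: the keratin genes KRT18 and KRT8 stood at 4255 ± 88.9 and 4160 ± 452 CPM in the control (SD, n = 3 each), while SFTPB, a surfactant gene, had no reads, and NKX2-1, a lung lineage factor, averaged 0.293 CPM. Of 10 tested epithelial markers 7 fell and 1 rose in the knockdown, with a median log2 fold change of -0.72, where 20.7% of all tested genes fell and 21.3% rose. Of 16 markers of blood, vessel and connective tissue cells 3 were tested, CD14 fell, CD68 rose, and PTPRC and CD3E had no reads. The summed level of those 16 ran from 225 to 312 CPM over the control libraries and from 309 to 352 CPM over the knockdown libraries, and its part in the results was not tested. In bulk RNA, fewer cells that make a transcript and less of it per cell cannot be told apart.

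MYLK-AS1 (ENSG00000239523.5) lies on the plus strand at chr3:123585542-123644568 of GRCh38 and MYLK (ENSG00000065534.18) on the minus strand at chr3:123610049-123884331. MYLK-AS1 starts 24.5 kb beyond the 3′ end of MYLK and runs into its body. GENCODE release 29 gives MYLK-AS1 3 transcripts with 980 exon bases in all. Only the second exon of transcript MYLK-AS1-202 overlaps MYLK exons: 133 of its 188 bases are the reverse complement of coding exon 29 of MYLK-201. That exon is shown because these are the bases over which a count without strand could mix the pair. The capitals mark the shared stretch, chr3:123629494-123629626.

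MYLK-AS1 exon 2 (chr3:123629494-123629681, plus strand): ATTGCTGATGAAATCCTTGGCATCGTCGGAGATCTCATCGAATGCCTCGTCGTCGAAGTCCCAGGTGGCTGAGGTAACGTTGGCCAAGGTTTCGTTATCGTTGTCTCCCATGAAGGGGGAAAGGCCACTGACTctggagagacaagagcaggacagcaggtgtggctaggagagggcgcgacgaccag

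The shared bases were 13.6% of the exon bases of MYLK-AS1 and 0.600% of those of MYLK. Exon 29 is not in every MYLK message: 6 protein-coding transcripts span the shared stretch, 4 include it and 2 skip it. Whether counting used strand was not given in the sources used here, so reads from that stretch cannot be assigned with certainty.

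MYLK-AS1, the target of the siRNA, fell. Control replicates 1 to 3 held 20, 16 and 19 of its reads, and knockdown replicates 1 to 3 held 0, 5 and 4. Every knockdown library was below every control library. Scaled, the mean was 1.84 ± 0.351 CPM in the control against 0.357 ± 0.309 CPM after knockdown (± SD, n = 3 per group), or 19.4% of the control mean. The log2 fold change was -2.43 (SE 0.60, adjusted p = 0.00326 by edgeR). Without knockdown replicate 1, the library with no reads of it, it was -1.74 (adjusted p = 0.0159 by edgeR). MYLK-AS1 passed the filter on low counts only through the control libraries, in which it was high. All of this rests on 55 and 9 reads summed over the groups. Genes as rare as MYLK-AS1 were measured loosely: among 2545 tested genes at 1 to 3 CPM in the control, the median SE of the log2 fold change was 0.40, against 0.16 over all tested genes. Of those 2545 genes 341 fell (13.4%), and 54, MYLK-AS1 included, had a log2 fold change at least as low as its own. Of all 15391 tested genes, 96 did.

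MYLK fell as well, by less. It had 412, 519 and 411 reads in the control and 291, 281 and 197 in the knockdown. In CPM the control libraries stood at 45.8, 50.01 and 37.6 and the knockdown libraries at 26.6, 29.5 and 26.9. The lowest control library was above the highest knockdown library, and the knockdown libraries lay closer together than the controls. The means were 44.5 ± 6.30 and 27.6 ± 1.58 CPM (SD, n = 3 each), so the knockdown kept 62.1% of the control level. The log2 fold change was -0.69 (SE 0.13, adjusted p = 0.000464 by edgeR). How much of either count came from reads of the other gene was not tested.

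The antisense RNA dropped further than the sense gene. Per 1000 MYLK reads, control replicates 1 to 3 held 48.5, 30.8 and 46.2 reads of MYLK-AS1, and knockdown replicates 1 to 3 held 0, 17.8 and 20.3. The ranges were apart. The means were 41.9 ± 9.63 and 12.7 ± 11.1 (SD, n = 3 each), a difference of -29.2 reads per 1000, with p = 0.1 in a two-sided exact permutation test, the smallest that this design allows. Per kilobase of annotated exon, the pair stood close together in the control, MYLK-AS1 at 1.87 ± 0.359 and MYLK at 2.01 ± 0.284 CPM per kb (SD, n = 3 each). In the knockdown they stood at 0.364 ± 0.315 and 1.25 ± 0.0713 CPM per kb. The 22167 exon bases of MYLK pool 21 transcripts, and shorter messages would give it a higher value per kb.

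**Figure D1:**
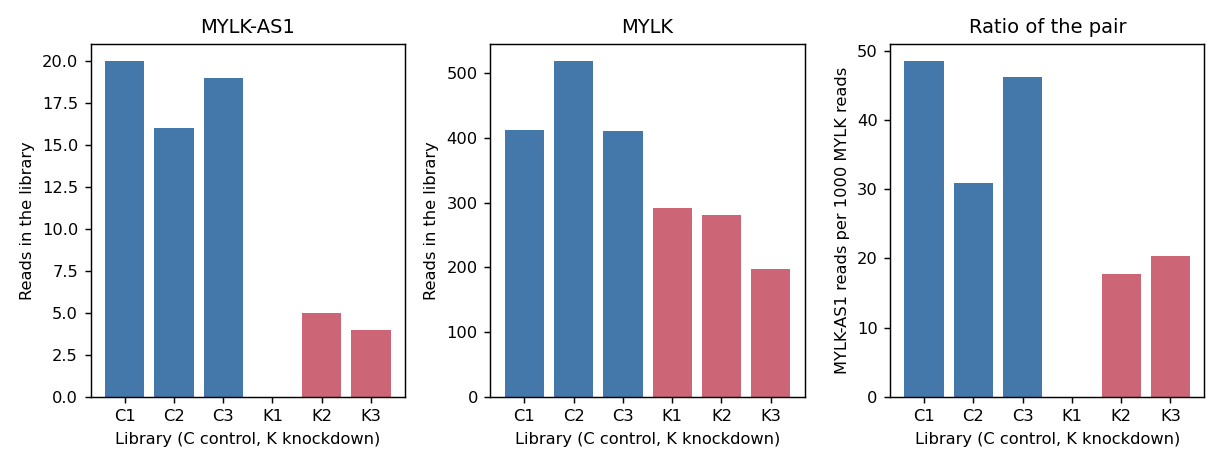
Bars give the reads of MYLK-AS1 (left) and MYLK (middle) and MYLK-AS1 reads per 1000 MYLK reads (right) in each library, controls C1 to C3 in blue and knockdowns K1 to K3 in red. MYLK-AS1 went from 16 to 20 reads down to 0 to 5, MYLK from 411 to 519 reads down to 197 to 291, and the ratio from 30.8 to 48.5 down to 0 to 20.3.

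Antisense genes and the genes they are named after, MYLK-AS1 and MYLK included, gave a background for the pair. These pairs were formed by symbol alone, without a check of position or strand. In 180 such pairs both genes were tested, and in 65 of them the antisense gene fell, where 20.7% of all tested genes fell. A fall was thus not particular to MYLK-AS1 among antisense genes. The sense gene fell in 17 of those 65 (26.2%), rose in 11 and did not pass in 37. Over all 180 pairs the sense gene fell in 30 (16.7%). Where the antisense gene fell, the sense gene most often did not pass, and a fall of both, as seen for MYLK-AS1 and MYLK, came next. In 5 pairs, this one included, the antisense gene had a log2 fold change at or below that of MYLK-AS1.

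MYLK-AS1 holds a stretch of 8 bases, and MYLK 7 of them, that was followed over all coding genes. The word CAGCTTAA was chosen after the data were seen, because transcripts with it in the 3′ untranslated region (UTR) tended to be lower in the knockdown. As background, an siRNA cuts the RNA that it pairs with fully and can lower other RNAs whose 3′ UTR pairs only with its first bases. MYLK-AS1 itself holds all 8 bases once, at chr3:123630774-123630781 in exon 3, as do 375 of 25822 annotated antisense and long intergenic transcripts (1.45%). The end of that exon is shown with the word in capitals, to set it beside the sites of MYLK and DTX3L.

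MYLK-AS1 end of exon 3 (chr3:123630702-123630821, plus strand): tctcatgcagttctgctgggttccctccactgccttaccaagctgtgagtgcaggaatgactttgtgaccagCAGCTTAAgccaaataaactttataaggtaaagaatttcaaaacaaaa

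MYLK 3′ UTR site: tcttgagcatCAGCTTAgtactatatc

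DTX3L 3′ UTR site: gagttgaggaAGCTTAAgctaaatgat

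In the sites of MYLK and DTX3L the capitals mark 7 of the 8 bases, the first 7 in MYLK and the last 7 in DTX3L. CCDC14 and SEC22A hold the inner 6 bases AGCTTA, and the 3′ UTRs of ADCY5, PDIA5, SEMA5B and KALRN hold none of these. Over the table, 145 of 362 tested coding genes with all 8 bases in the longest annotated 3′ UTR fell (40.1%), with a median log2 fold change of -0.24. With 7 of the 8 bases 24.3% of 1518 genes fell, with AGCTTA alone 18.9% of 1294, and with none 18.6% of 8427. The share that fell was larger with all 8 bases than with 7, and larger with 7 than with AGCTTA alone or none, also without any 1 library. Over 3′ UTRs of all lengths, AGCTTA alone and none did not differ in a steady direction. The share with AGCTTA alone was below that with none without control replicate 1 (14.9% and 15.7%). It was also below without control replicate 2 (14.6% with AGCTTA alone) or knockdown replicate 1 (16.4% with AGCTTA alone). Matches are commoner in long 3′ UTRs, whose median length went from 3368 bases with the whole word to 969 with none. Among 3′ UTRs of 2000 to 5000 bases, 37.1% of 159 genes with the word fell and 23.4% of 734 with 7 of the 8 bases. With AGCTTA alone 16.1% of 607 fell, and with none 12.1% of 1700. A match did not fix a direction: MYLK fell and DTX3L rose, both with 7 bases. The word was taken from these same fold changes, so these shares are a description, those with a library left out included. The part of the word in the fall of MYLK-AS1 and MYLK was not tested.

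MYLK-AS1 begins beside another gene. Its first base is 357 bp from the first base of HACD2, a dehydratase of very long chain fatty acid synthesis that is transcribed away from it on the minus strand. The promoter window of MYLK-AS1 (RefSeq, GRCh38.p14, from 250 bases before the start to 50 after it) is shown because the start regions touch. The capitals mark 41 bases that it shares with the window of HACD2.

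MYLK-AS1 promoter (chr3:123585263-123585562, plus strand): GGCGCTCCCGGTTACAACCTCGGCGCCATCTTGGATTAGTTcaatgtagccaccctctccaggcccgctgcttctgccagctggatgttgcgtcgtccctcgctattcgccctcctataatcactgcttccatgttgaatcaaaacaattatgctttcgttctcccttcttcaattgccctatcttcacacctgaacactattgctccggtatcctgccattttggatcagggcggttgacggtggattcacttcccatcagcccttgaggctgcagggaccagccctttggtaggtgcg

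HACD2 was at 84.0, 83.6 and 68.4 CPM in the control against 60.5, 65.7 and 75.1 CPM in the knockdown. The groups overlapped through control replicate 3 and knockdown replicate 3. Its log2 fold change was -0.23 (SE 0.11, adjusted p = 0.116 by edgeR), which did not pass, and without control replicate 3 it was -0.33 (adjusted p = 0.0231). HACD2 is no member of the 9 genes and is given as the gene that shares the start region.

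The other genes were arranged on both sides of the pair. CCDC14, a centrosomal protein, lies upstream of MYLK, 13.0 kb from its 5′ end and on the same minus strand (chr3:123897305-123961408). It stood at 36.8, 39.8 and 31.6 CPM in the control against 26.5, 28.7 and 28.1 CPM in the knockdown. The ranges were apart by a narrow gap, with control replicate 3 nearest to the knockdown. The means were 36.1 ± 4.16 and 27.8 ± 1.16 CPM (SD, n = 3 each), and the log2 fold change -0.38 (SE 0.13, adjusted p = 0.0256 by edgeR). The call did not hold when control replicate 1 (adjusted p = 0.0700), control replicate 2 (0.145), knockdown replicate 1 (0.0808) or knockdown replicate 2 (0.0559) was left out of the edgeR fit.

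ADCY5, an adenylyl cyclase, lies 160 kb from the 3′ end of MYLK on the minus strand (chr3:123282296-123449758). It had 17, 28 and 22 reads in the control and 18, 23 and 9 in the knockdown. The ranges overlapped. Its mean was 2.20 ± 0.435 CPM in the control against 1.76 ± 0.600 CPM after knockdown (± SD, n = 3 per group). Its log2 fold change of -0.30 (SE 0.36, adjusted p = 0.524 by edgeR) was smaller than its error.

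SEC22A, of the family of vesicle fusion proteins named for yeast Sec22, lies 336 kb from MYLK on the plus strand (chr3:123201927-123274130). It was at 19.0, 19.7 and 20.5 CPM in the control against 15.5, 18.1 and 23.3 CPM in the knockdown. The knockdown libraries lay on both sides of the control range. The log2 fold change was -0.066 (SE 0.16, adjusted p = 0.770 by edgeR), and the means were 19.7 ± 0.743 and 19.0 ± 3.98 CPM (SD, n = 3 each).

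PDIA5, the disulfide isomerase, rose. It lies 385 kb from MYLK on the plus strand (chr3:123067062-123225227), and its GENCODE model runs 23.3 kb into that of SEC22A on the same strand, so reads there could be counted for either gene or dropped. The control libraries held 85.3, 81.7 and 84.7 CPM and the knockdown libraries 114, 115 and 117 CPM. These were the tightest groups among the 9 genes relative to their means, far apart from each other. The means were 83.9 ± 1.92 and 116 ± 1.74 CPM (SD, n = 3 each), and the log2 fold change 0.46 (SE 0.09, adjusted p = 0.00058 by edgeR).

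SEMA5B, a semaphorin, and KALRN, which lie on opposite sides of MYLK at 581 and 196 kb, were not tested for lack of reads. SEMA5B (minus strand, chr3:122909082-123028605) had 3, 2 and 0 reads in the control and 1, 6 and 0 in the knockdown. KALRN (plus strand, chr3:124080023-124726325) had 0, 0 and 2 reads in the control and none in the knockdown. No difference was detectable at these read counts for either gene, and why the counts were low was not tested.

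DTX3L, the ubiquitin ligase, rose, and lies the farthest away, 1034.8 kb from MYLK on the plus strand (ENSG00000163840.9, chr3:122564238-122575203). It stood at 84.2, 76.0 and 71.6 CPM in the control against 98.2, 127 and 123 CPM in the knockdown. The ranges were apart, with knockdown replicate 1 nearest to the control. The means were 77.3 ± 6.40 and 116 ± 15.6 CPM (SD, n = 3 each), and the log2 fold change 0.59 (SE 0.11, adjusted p = 0.000407 by edgeR).

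**Figure D2:**
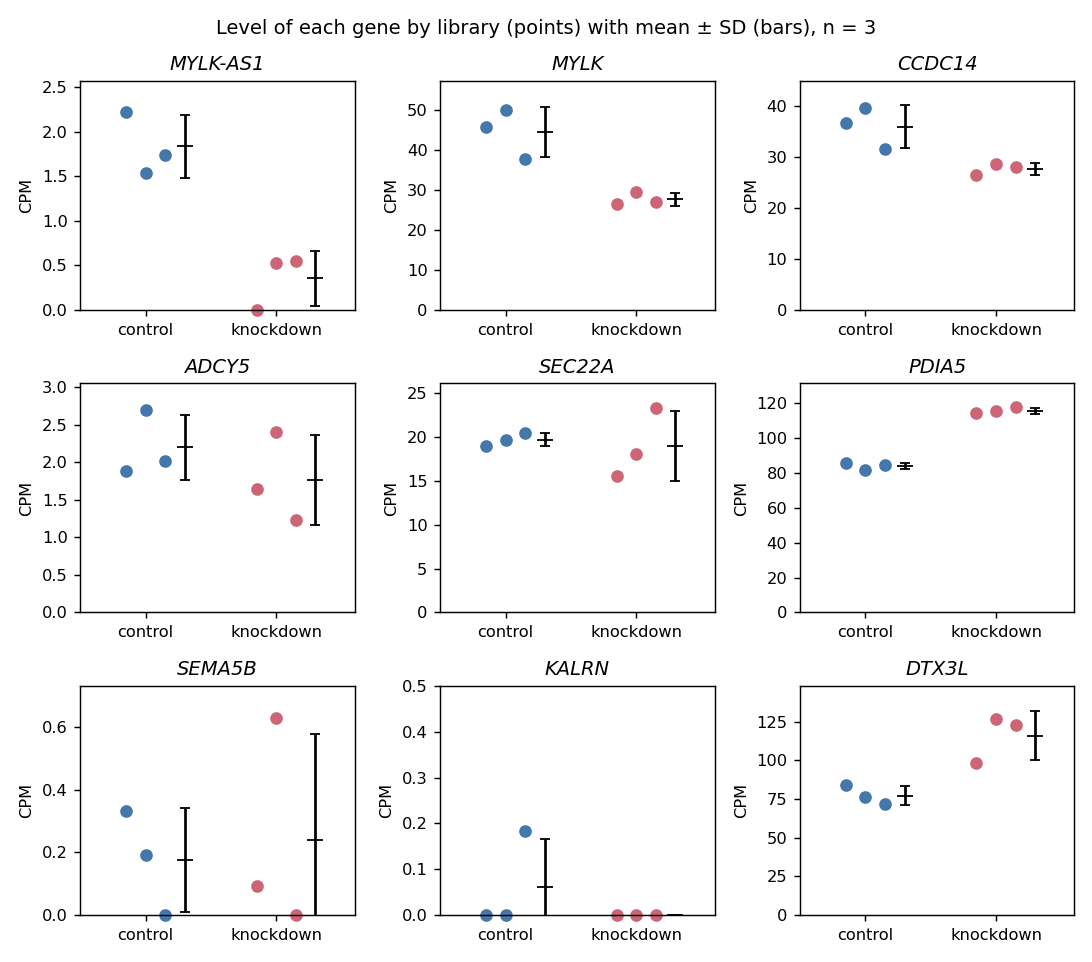
Each panel plots 1 gene, with its level in CPM on the vertical axis, 1 point per library (control blue, knockdown red) and the mean ± SD (n = 3) as bars. MYLK-AS1, MYLK and CCDC14 sit lower and PDIA5 and DTX3L higher in the knockdown with no overlap of points, ADCY5 and SEC22A overlap, and SEMA5B and KALRN have 0 to 6 reads per library.

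Per kilobase of exon, which allows genes to be set side by side, the control levels were ordered as follows. PDIA5 led with 20.8 CPM per kb, then came DTX3L with 13.2, SEC22A with 4.20, CCDC14 with 3.16, MYLK with 2.01, MYLK-AS1 with 1.87 and ADCY5 with 0.248. SEMA5B and KALRN followed at 0.0206 and 0.00249 CPM per kb, from 5 and 2 reads in all. MYLK and MYLK-AS1 differed by less than the SD of either, and their order is not set by these data. In the knockdown PDIA5 rose to 28.7 and DTX3L to 19.8, CCDC14 stood at 2.43 and MYLK at 1.25, and the order of the 7 tested genes was the same. MYLK-AS1, at 0.364 ± 0.315, and ADCY5, at 0.198 ± 0.0676, were then within the SD of MYLK-AS1.

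The genes that fell within 1 Mb of MYLK lay at the pair itself or 13.0 kb from it. Those that rose lay 385 kb away or farther. The genes that fell were only the siRNA target, the gene it overlaps and CCDC14, whose call was lost in some fits with a library left out. HACD2, 24.9 kb from MYLK, did not pass. Within 500 kb of MYLK 8 genes were tested, of which 3 fell and 1 rose, with a median log2 fold change of -0.27. Within 1 Mb 13 of 26 genes were tested, of which 3 fell and 3 rose (46.2% called, median -0.07). Within 2 Mb 4 of 29 fell and 12 rose (55.2% called, median 0.34). Over chromosome 3, 43.8% of 809 tested genes were called with a median of 0.09, and over all tested genes the median was -0.00. Among these nested windows, each of few genes, the median was lowest within 500 kb, which holds the siRNA target itself, and highest within 2 Mb. The medians of chromosome 3 and of all tested genes lay between those, so the order did not continue beyond 2 Mb. Besides those of the 9 genes, the called genes within 1 Mb were PARP14, a PARP family enzyme with macrodomains, at 0.34 (SE 0.10, adjusted p = 0.0108 by edgeR), and ITGB5, an integrin subunit, at 0.33 (SE 0.09, adjusted p = 0.00554). Those that did not pass were HACD2, HSPBAP1 (-0.18), DIRC2 (0.18), UMPS (0.60, adjusted p = 0.0504 by edgeR) and the pseudogene RPL7P15 (0.86, SE 0.64).

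**Figure D3:**
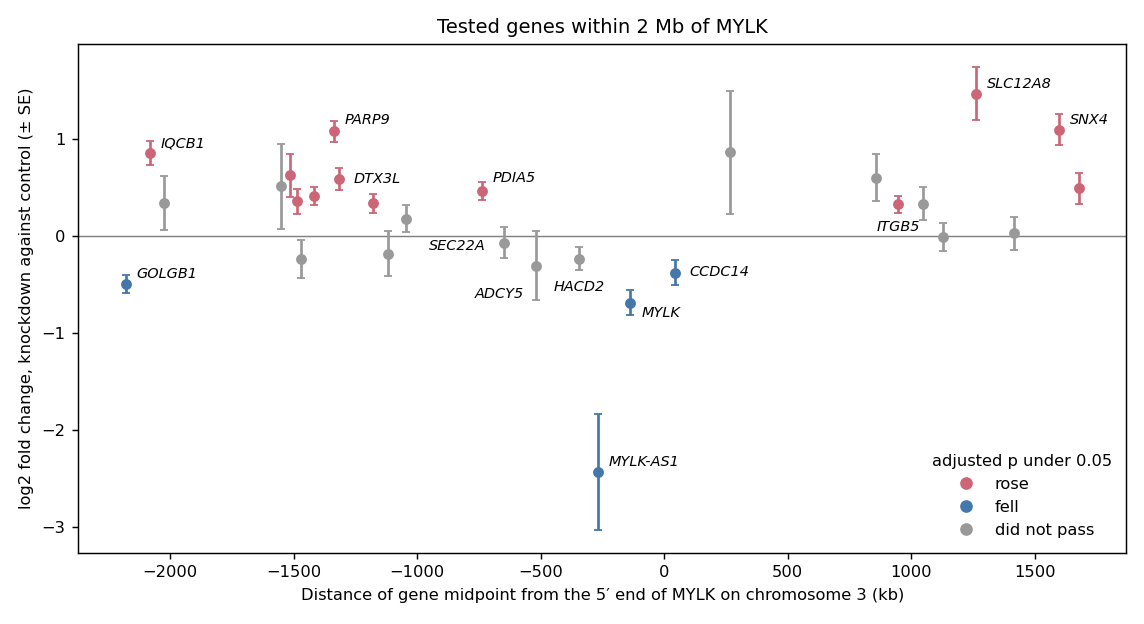
Each point is a tested gene within 2 Mb of MYLK, with the distance of its midpoint from the 5′ end of MYLK in kb on the horizontal axis and the log2 fold change ± SE on the vertical axis. MYLK-AS1 at -2.43, MYLK at -0.69 and CCDC14 at -0.38 are the genes that fell within 1 Mb of MYLK, and genes that rose, such as PDIA5, PARP9 and ITGB5, lie on both sides.

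DTX3L shares its start region with PARP9, its protein partner, a macrodomain protein that binds ADP-ribose. The DTX3L and PARP9 genes are transcribed away from each other, and their annotated starts overlap by 339 bp. Both are known as genes that interferon induces. Type I interferon acts through a complex that holds STAT2 and IRF9 and binds paired GAAA repeats. The promoter window of DTX3L (RefSeq, GRCh38.p14) was therefore searched for GAAANNGAAA on both strands and is shown with its 1 match in capitals, at chr3:122564332-122564341.

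DTX3L promoter (chr3:122564088-122564387, plus strand): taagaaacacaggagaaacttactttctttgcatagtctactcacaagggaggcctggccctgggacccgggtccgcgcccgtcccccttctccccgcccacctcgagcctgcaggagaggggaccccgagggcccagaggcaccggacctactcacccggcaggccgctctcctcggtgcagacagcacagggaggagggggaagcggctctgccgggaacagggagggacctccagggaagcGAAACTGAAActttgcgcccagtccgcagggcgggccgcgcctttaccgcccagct

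Of this window 137 bases are also in a promoter window of PARP9, the match included. Of 35116 RefSeq promoter windows of 300 bases 1255 held the motif (3.57%), as did those of 25 of 39 genes of the interferon list with a window. Of the 14 windows of the 9 genes, that of DTX3L held the only match. MYLK had a single window, chr3:123620499-123620798, which lies inside the gene. The 3 windows of KALRN and those of ADCY5 also lie inside their genes. The GENCODE 5′ ends of MYLK, KALRN and ADCY5 were thus not searched. A match does not show that the site was bound.

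PARP9 was at 94.7, 90.2 and 102 CPM in the control against 171, 220 and 216 CPM in the knockdown. Like DTX3L it had its lowest knockdown value in replicate 1. Its log2 fold change was 1.08 (SE 0.11, adjusted p = 4.73e-07 by edgeR), from 95.8 ± 6.19 to 203 ± 27.2 CPM (SD, n = 3 each). PARP14, a neighbour on the same side, went from 120 ± 6.79 to 152 ± 16.7 CPM. The log2 fold changes of the divergent pair, 1.08 and 0.59, were not tested against each other.

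The list of DTX3L partners and interferon-inducible genes held more genes that rose than fell. Of its 45 tested genes, DTX3L, PARP9 and PARP14 among them, 29 rose, 3 fell and 13 did not pass, a called share of 71.1%. Over all tested genes 21.3% rose and 20.7% fell. The median log2 fold change of the list was 0.53 against -0.00 over all tested genes. SAMD9, an antiviral restriction factor, had a log2 fold change of 2.43 (SE 0.16), DDX58, the RNA sensor RIG-I, of 1.42 (SE 0.12), and IFIT5, which binds the ends of foreign RNA, of 1.32 (SE 0.12). Not all of the list moved that way. STAT2, at -0.09 (adjusted p = 0.568 by edgeR), did not pass, while IRF9 rose by 0.28 (adjusted p = 0.0356). PSMB8 and PSMB9, subunits of the immunoproteasome, fell with log2 fold changes of -0.37 and -0.43, and IRF1 fell too, at -0.29. The genes outside the 4 with the lowest p were chosen after their values were seen. The count that rose was 19 without knockdown replicate 2 or without control replicate 2, and 20 to 33 without 1 of the others. The count that fell ran from 0 to 4 when a library was left out, and was 0 without knockdown replicate 1.

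DTX3L is itself a gene of this list, and in knockdown replicate 3 it was the median gene. Relative to the control mean on the log2 scale, the list stood at -0.09, -0.16 and 0.24 in control replicates 1 to 3 and at 0.27, 0.73 and 0.67 in knockdown replicates 1 to 3. DTX3L stood at 0.13, -0.02 and -0.11 in the control and 0.35, 0.72 and 0.67 in the knockdown. Control replicate 3 was the highest control for the list and the lowest for DTX3L. In the knockdown, replicate 1 was lowest for DTX3L, PARP9 and the list.

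**Figure D4:**
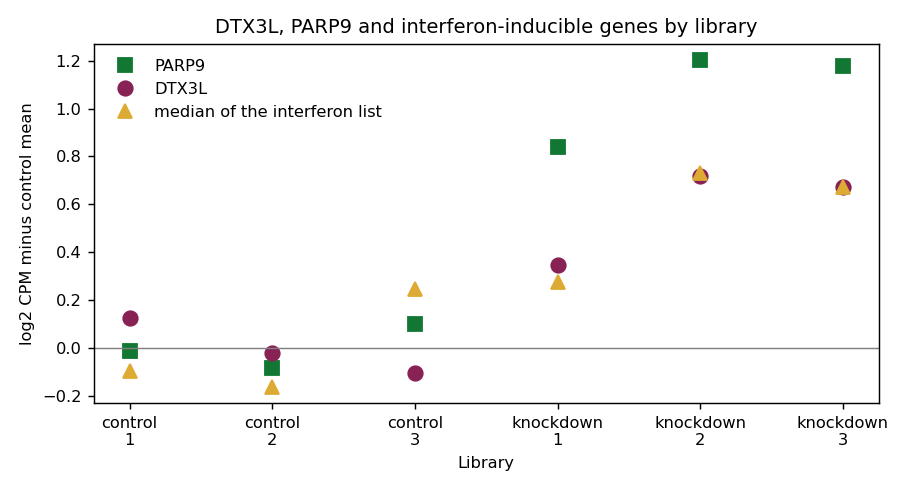
The log2 CPM of DTX3L and PARP9 and the median of the interferon list are plotted per library, as the difference from the mean of the control libraries. Knockdown replicate 1 lies below the other knockdown libraries in all 3 series, and control replicate 3 is level with knockdown replicate 1 for the list median (0.24 and 0.27).

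Of the 4 other Deltex ligases 1 rose, near the 21.3% of all tested genes that rose. DTX3, at 15.1 ± 1.16 CPM in the control (SD, n = 3), rose by 0.52 on the log2 scale (SE 0.15, adjusted p = 0.00805 by edgeR). DTX1, DTX2 and DTX4 were at 2.97, 1.99 and 2.91 CPM and did not pass.

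Around MYLK, the enzymes that set the phosphorylation of the myosin light chain moved both ways. Of 27 tested genes of the kinase and phosphatase list 6 rose and 4 fell, and MYLK itself was among those that fell. The called share was 37.0% against 42.0% of all tested genes, with a median of -0.02. MPRIP, which ties the myosin phosphatase to actin, fell from 243 ± 29.8 to 93.0 ± 9.77 CPM (SD, n = 3 each), with a log2 fold change of -1.38. The kinases CDC42BPA and DAPK2 fell with log2 fold changes of -0.96 and -1.19. RHOB, a GTPase that acts on actin, rose by 0.97. ROCK1 and ROCK2, kinases that raise light chain phosphorylation, were at -0.02 and -0.19 and did not pass, and both were chosen after their values were seen. MYLK2, MYLK3 and MYLK4, the other genes of the kinase family, had too few reads to be tested.

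Of 26 tested actomyosin genes 9 fell, 3 rose and 14 did not pass, with a median of -0.11. The called share, 46.2%, was near the 42.0% of all tested genes, but more genes of the list fell than rose. Over all tested genes 20.7% fell and 21.3% rose. TPM3, a tropomyosin, had a log2 fold change of -1.42, from 310 ± 11.4 to 116 ± 12.0 CPM (SD, n = 3 each), and ACTA2, smooth muscle actin, from 33.7 ± 2.03 to 13.1 ± 1.55 CPM (-1.37). The actin-binding proteins TAGLN2 and CNN2 fell with log2 fold changes of -0.63 and -0.58. The light chains that MYLK acts on in non-muscle cells, MYL12A at 0.11 and MYL12B at 0.20, and the heavy chain MYH9 at -0.12 did not pass. These were also chosen after their values were seen. MYL9 was not tested. The actin gene ACTG1 had no reads in any library, while ACTB averaged 3833 ± 308 CPM in the control (SD, n = 3). The cause was not tested.

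The relatives and partners of the remaining genes were mixed. For CCDC14, 17 centrosome genes were tested, of which 3 fell and 1 rose (median -0.12), a called share of 23.5% against 42.0% of all tested genes. PCM1, the scaffold of centriolar satellites, had a log2 fold change of -0.42, STIL and CEP131 had -0.48 and -0.52, and BBS4 had 0.34. For ADCY5, 2 of 5 tested cyclases fell, and none rose, close to the called share of all tested genes. ADCY6 had a log2 fold change of -1.20, from 50.2 ± 1.22 to 22.0 ± 2.23 CPM (SD, n = 3 each), and ADCY9 of -0.66. ADCY6 is the closest relative of ADCY5.

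For SEC22A, 4 of 10 tested genes rose and 1 fell (median 0.27), where 42.0% of all tested genes were called and 21.3% rose. Its paralogs went in opposite directions, SEC22B at 0.42 and SEC22C at -0.40, while SCFD1, a regulator of vesicle fusion, rose by 0.87 and the SNARE gene GOSR2 by 0.50. For PDIA5, 4 of 15 tested disulfide isomerases and oxidases rose and 4 fell (median 0.08), a called share of 53.3%. ERO1A, the oxidase that recharges isomerases, rose from 114 ± 7.44 to 209 ± 2.39 CPM (SD, n = 3 each), whereas AGR2, an isomerase for mucins, fell from 490 ± 18.8 to 229 ± 12.0 CPM. TXNDC12 and ERP29 fell with log2 fold changes of -0.68 and -0.37. The relatives of PDIA5 thus moved both ways.

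For SEMA5B, 3 of 10 tested plexins and neuropilins rose and 1 fell (median -0.06), near the 42.0% called of all tested genes. PLXNA4, 1 of the 3 that rose, had 6, 4 and 3 reads in the control and 33, 21 and 14 in the knockdown, so it was tested only through the group in which it was high. PLXNA1 rose by 0.45 and PLXND1 by 0.34, and NRP2 had a log2 fold change of -0.42. For KALRN, 2 of 9 genes rose and 2 fell (median 0.11), a called share of 44.4%: RHOA and PAK1 were at 0.37 each, and RAC3 was at -0.53. TRIO, the paralog of KALRN, was at 0.25 and did not pass.

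**Figure D5:**
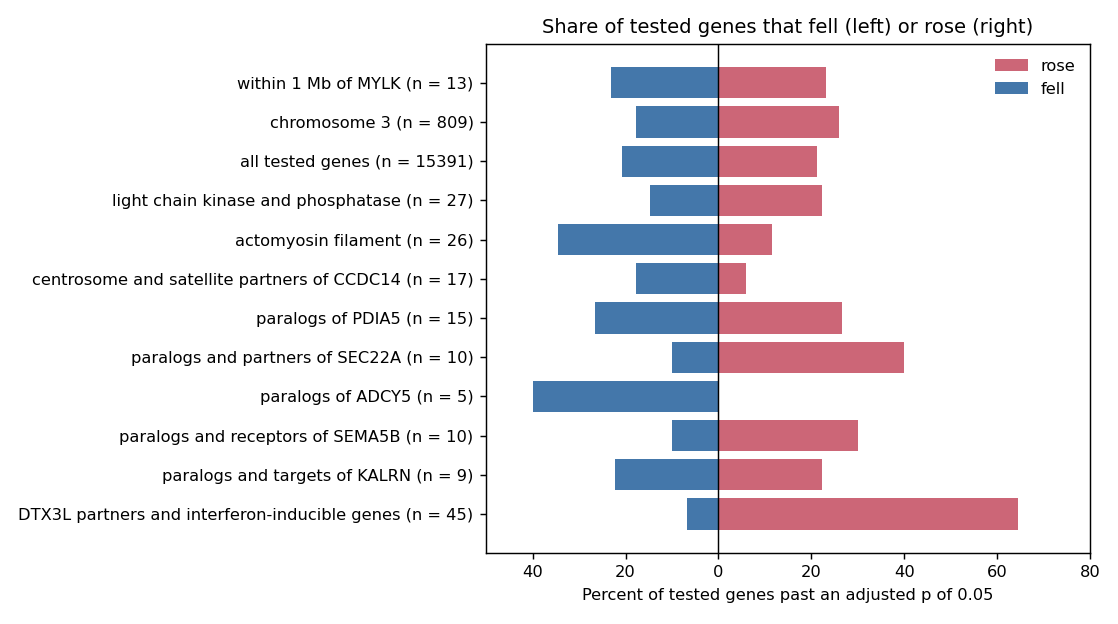
Bars give the percent of tested genes that rose (right, red) or fell (left, blue) at an adjusted p under 0.05, for genes near MYLK, chromosome 3, all tested genes and the lists built around the 9 genes. The DTX3L and interferon list has 29 of 45 genes up, while the other lists and windows are mixed.

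The genes whose level followed MYLK most closely over the 6 libraries were PDZD8 (Pearson r 0.998), E2F8 (0.996), FAM83D (0.994), PTPN14 (0.993) and TMC5 (0.992), on other chromosomes than MYLK. Among those closest to DTX3L were RLIM (0.999), MED7 (0.997), PPP3R1 (0.997) and ST8SIA4 (0.996). These were picked as the highest of 9361 genes that averaged 10 CPM or more. Such values come easily with 6 libraries in 2 groups: 824 genes had r of at least 0.9 with MYLK and 1192 with DTX3L. PDZD8 was at 188, 204 and 148 CPM in the control against 99.1, 112 and 95.8 CPM in the knockdown, with control replicate 3 low and control replicate 2 high as for MYLK.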

How the data were processed

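Trizol was used to extract RNA of the 6 samples, and sequencing libraries came from an Ion Proton kit, per the labels' protocols. The authors deposited raw counts of reads per gene symbol, with GRCh38 as the build per the submitters' processing notes. Aligner, counter, annotation and strand setting were not given in the sources used here.

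From the counts, edgeR 4.0.16 in R 4.3.3 gave TMM factors, filterByExpr filtering, a robust quasi-likelihood fit over 15391 genes and two-sided tests with Benjamini-Hochberg adjustment. An SE is approximated as the log2 fold change over the square root of F. Positions came from GENCODE release 29, which matched 34719 symbols directly and 658 through another symbol, and promoters from RefSeq.

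The genes, lists, word and tests were chosen with earlier results of these data known. Named were the 9 genes, tested genes within 1 Mb of MYLK, up to 4 called genes with the lowest p per list, PARP9, and the 5 genes most correlated with MYLK and with DTX3L. A few of these are not reported here. Counts were simulated for 15391 genes, of which 200 were changed. The fit recovered 18 of 67 genes at a log2 change of 0.5, 54 of 67 at 1 and 63 of 66 at 2. Of 144 calls 9 were false. In the data a far larger share passed (42.0% of tested genes), so recovery there may differ. Alternatives were other scaling factors or filters, DESeq2 1.42.0, limma-voom (limma 3.58.1), a replicate block and leaving out each library.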

Additional observations from a re-analysis of the deposited data

How the results depend on the processing

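Over 14 alternatives of scaling, filter, test, replicate block and left-out library, 5173 to 6836 genes were called over the table and 4 to 5 of the 9 genes. MYLK-AS1 stayed between -2.95 and -1.74 (adjusted p 0.000331 to 0.0168) and MYLK between -0.80 and -0.59 (7.62e-06 to 0.00539). MYLK-AS1 and ADCY5 were not tested with a filter of 5 CPM in 3 libraries. Within 1 Mb of MYLK 4 to 8 genes were called when a library was left out, and with a window of 2 Mb 16 were, since more genes were counted. CCDC14 ran from -0.47 to -0.30, and its lost calls stand with its values. SEC22A ran from -0.225 to 0.070 when a library was left out, turning to 0.070 (adjusted p = 0.768) without knockdown replicate 1, and the cause was not tested. PDIA5 ran from 0.43 to 0.48 and DTX3L from 0.52 to 0.70, with adjusted p under the threshold in each of the 14. The difference in MYLK-AS1 reads per 1000 MYLK reads ran from -34.7 to -22.8.

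The replicate numbers did not pair the libraries: deviations of same-numbered libraries correlated at -0.05, 0.07 and 0.05. With the number as a block, 6521 genes were called, 5 of the 9 genes and 7 genes within 1 Mb of MYLK. MYLK-AS1 was then at -2.43 (adjusted p = 0.00648) and MYLK at -0.68 (0.000435). The difference in reads per 1000 MYLK reads paired by number was -29.2 (exact sign-flip permutation p = 0.25, the smallest for 3 pairs).

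Low counts limit MYLK-AS1, ADCY5, SEMA5B and KALRN most, whose reads summed over the control libraries were 55, 67, 5 and 2.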
